A study of Rattus norvegicus with 145 samples.

Results

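The lipid droplet genes described here are the rows that carry the symbols Cd36, Cidea, Cideb, Cidec, G0s2, Mogat1, Plin2, Plin5 and Pnpla2 in 5 tables of gene counts from rat liver, 9 of the 17337 genes listed. The rule named 10 genes, and Plin4, a perilipin best known from adipose tissue and muscle, is not analysed here. Of the 9 listed, 7 had enough counts to be tested in every table. Mogat1 and Pnpla2 did not, and their counts are given at the end of the results on single genes.

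Acetamide, a small amide, was given in water by daily gavage to wild-type Wistar rats, and RNA of the left liver lobe was sequenced from 29 groups of 5 rats. Experiment A used Hsd:WI males 9 to 10 weeks old, which received water or acetamide for 7 days at doses of 30, 100, 300 and 1000 mkd (mg of acetamide per kg of body weight and day). Experiment B used Crl:WI males and females 8 to 10 weeks old, which received water or 300, 500, 750, 1000 and 1500 mkd for 7 or 28 days. All rats were fasted overnight and sampled on day 8 or day 29, in experiment B 24 h after the last dose. The controls, gavaged with water alone, shared the fast and the handling. The control males of day 29 carry the tag of the first experiment but the Crl:WI strain of experiment B, and were treated as experiment B. The 5 rats of a group were separate animals, and every dose of a table was compared with the same 5 controls. Replicate numbers below count the rats of a group in column order. At 100, 300 and 1000 mkd of experiment A they can differ from the numbers in the labels.

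Hepatocytes store surplus fatty acids as triglyceride in lipid droplets, and droplets in the liver grow and shrink with feeding, fasting and toxic injury. Fatty acids enter cells through carriers such as CD36, are esterified by acyltransferases such as MOGAT1, and are kept under a coat of perilipins. The 3 CIDE proteins join droplets together or load lipid onto lipoproteins. The lipase PNPLA2 (ATGL) starts the breakdown of stored triglyceride, and G0S2 is its inhibitor.

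Promoter sequence is shown for 3 members, because Plin2 and Plin5 varied together from rat to rat and Cd36 had the largest difference between the sexes. Each is the 250 bases before the annotated start, written 5′ to 3′ on the gene's own strand, from RefSeq on the GRCr8 build. Plin2 lies at chr5:106229019-106229268 on the minus strand, Plin5 at chr9:1033285-1033534 on the minus strand and Cd36 at chr4:18246332-18246581 on the plus strand. Capitals mark CACGTG, the E-box read by bHLH factors, 67 bases before the start of Plin2. In Plin5 they mark AGGTCA, a nuclear receptor half-site, 157 bases before the start, and in Cd36 they mark TTTATA, which is TATAAA on the opposite strand, 175 bases before the start.
Plin2: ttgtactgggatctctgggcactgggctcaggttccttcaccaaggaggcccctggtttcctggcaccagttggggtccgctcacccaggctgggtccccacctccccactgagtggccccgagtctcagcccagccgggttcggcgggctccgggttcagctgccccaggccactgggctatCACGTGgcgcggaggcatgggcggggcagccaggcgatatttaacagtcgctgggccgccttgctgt
Plin5: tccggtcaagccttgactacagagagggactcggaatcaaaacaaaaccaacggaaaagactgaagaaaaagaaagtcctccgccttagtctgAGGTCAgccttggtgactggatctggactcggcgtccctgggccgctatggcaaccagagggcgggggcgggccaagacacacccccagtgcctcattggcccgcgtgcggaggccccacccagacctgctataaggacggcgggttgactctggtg
Cd36: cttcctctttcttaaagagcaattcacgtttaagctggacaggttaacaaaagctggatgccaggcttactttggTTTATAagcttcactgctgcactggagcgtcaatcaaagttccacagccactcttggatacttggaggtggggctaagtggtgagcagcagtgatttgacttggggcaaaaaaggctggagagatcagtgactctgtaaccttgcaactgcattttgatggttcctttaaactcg

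All 10 named genes matched the promoter table, with 15 entries among its 33469, and 6 motifs were searched on both strands. CACGTG stood in the 1 entry of Plin2 and in 5.59% of all entries. AGGTCA stood in the entries of Plin5 and Mogat1 and in 14.1% of all, and TATAAA in that of Cd36 and in 12.9% of all. The direct repeat of AGGTCA with any 1 base between the copies, the usual form of a PPAR response element, was found in 0 of the 15 entries and in 0.0508% of all. CCAAT was found in Plin5 and Mogat1 (34% of all) and TTCNNNGAA in G0s2 (7.67% of all). These matches describe letters in a short window and were not tested against the counts.

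Depth ran from 15449716 to 39986531 reads on genes per rat, with a median of 28262376, and values below are CPM, reads per 1000000 reads on genes after TMM scaling of the library sizes. The hepatocyte markers took 73720 to 374000 CPM in the control and highest-dose groups. The adipocyte-defining genes Adipoq, Plin1, Lep and Retn stood between 0 and 0.232 CPM in those groups. The other 3 of the 7 adipocyte markers were tested: Fabp4, which macrophages and endothelium also express, rose in experiment A (6.21 ± 5.89 to 15.3 ± 15.3 CPM, adjusted p = 0.0468), and Lipe and Cfd were not called in any table. The summed adipocyte list was 22.2 to 37.6 CPM in the controls of experiment A and 25.8 to 56.5 CPM at 1000 mkd, and 25.0 to 51.5 and 34.2 to 51.7 CPM in females of day 29. In experiment A at 1000 mkd, 3 of 10 hepatocyte markers fell (Alb, Ass1 and Ttr; sum 248800 to 332500 CPM in controls and 73720 to 241300 CPM at 1000 mkd), and 5 of 9 macrophage, 3 of 6 endothelial, 1 of 6 stellate and 0 of 4 cholangiocyte markers rose. In females of day 29 at 1500 mkd 3 hepatocyte markers fell (Alb, Ass1 and Cps1) and Apoa1 rose, with sums of 194400 to 374000 and 90360 to 189700 CPM, and 4 macrophage, 2 endothelial, 3 stellate and 1 cholangiocyte marker rose. These are the comparisons in which members were called at the highest dose. In the other 3 tables Cyp2e1 alone of the marker genes passed, in males of day 29, where it rose (log2 fold change 0.73, adjusted p = 0.0326). The part of these shifts in the results below was not tested, and in bulk RNA fewer cells of a type and less RNA per cell cannot be told apart.

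A gene was called at a dose when its fold change against the controls was at least 1.5 and its adjusted p at most 0.05 in the edgeR quasi-likelihood fit of its table. Over 24 dose comparisons the 7 tested members gave 168 tests, of which 3 were called and 19 had an unadjusted p under 0.05. The calls were Cidec in males of experiment A at 1000 mkd, Cidea in males of day 29 at 1000 mkd and Cd36 in females of day 29 at 1500 mkd. Of the comparisons below the highest doses, DESeq2 was run for males of day 29 at 1000 mkd alone, where it also called 1 member. Below the highest doses the members gave 133 tests in edgeR, with 1 call and 10 at an unadjusted p under 0.05. The shares of all genes called there were 0% at 30, 100 and 300 mkd in experiment A and at 300 to 1000 mkd in males of day 8, and 0%, 0%, 0.78% and 2.76% at 300, 500, 750 and 1000 mkd in males of day 29, the last being the comparison with the call of Cidea. The shares at 300, 500, 750 and 1000 mkd were 0.0087%, 0.0174%, 0.0174% and 1.37% in females of day 8 and 0%, 0.0349%, 0.183% and 1.59% in females of day 29. Cideb passed the adjusted p in 2 further comparisons with a fold just under the threshold. In 1 of the 168 tests, Cideb in females of day 29, did all 5 treated rats lie outside the range of their controls.

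**Figure D1:**
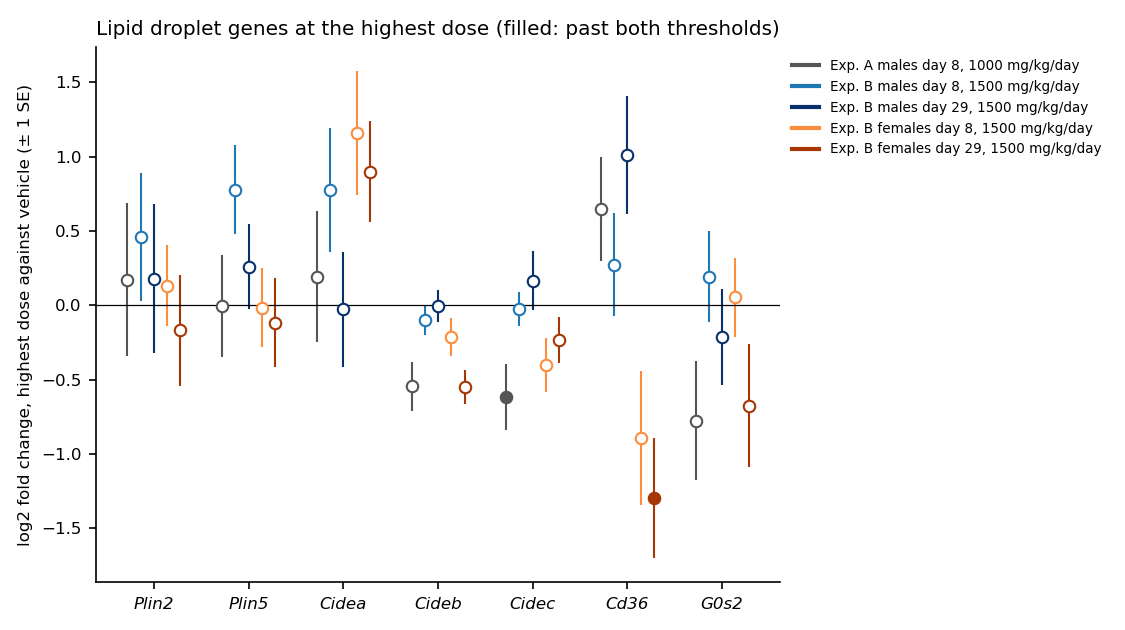
The log2 fold change of the 7 tested members at the highest dose of each table against its controls (y axis), with 1 SE either side; filled points passed both thresholds. The filled points are Cidec in experiment A at -0.62 and Cd36 in females of day 29 at -1.3, and Cd36 lies above 0 in the 3 male tables and below 0 in both female tables.

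Cd36, the fatty acid translocase that brings long-chain fatty acids into the cell, stood far lower in males than in females before any acetamide. On a scale set jointly for both sexes, the 5 control males of day 8 had 10.0, 5.36, 3.35, 3.87 and 8.66 CPM, in order of replicate number. The control females of day 8 had 155, 53.2, 104, 94.0 and 154 CPM. The sexes did not overlap: the lowest female was above the highest male. Males were lower by 17.9-fold (log2 difference -4.16, SE 0.46, adjusted p = 6.78e-10), where 8.37% of all genes passed in either direction. On day 29 the males had 5.08, 3.04, 2.99, 2.2 and 2.99 CPM and the females 70.1, 48.7, 29.2, 190 and 196 CPM. Again no female reached down to the males, and the difference was 32.7-fold (log2 difference -5.03, SE 0.48, adjusted p = 3.71e-12; 11.6% of all genes passed). Over all doses the highest male value of Cd36 was 18.1 CPM and the lowest female value 21.3 CPM, on scales set within each table. Each sex was counted in tables of its own, so sex and table cannot be told apart.

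In females dosed for 28 days Cd36 fell with dose. The controls had 71.2, 51.1, 30.3, 198 and 201 CPM, and the females at 1500 mkd had 26.2, 23.7, 38.1, 64.8 and 71.8 CPM. The 2 highest control rats were far above the rest, 2 treated rats lay below all controls, and the other 3 overlapped with them. Means were 110.3 ± 82.6 and 44.9 ± 22.2 CPM (SD, n = 5), for a log2 difference of -1.3 (SE 0.40, adjusted p = 0.0242), 1 of 7 members called against 13.1% of all genes. The call was lost without control replicate 4 (-1.0, adjusted p = 0.0920), control replicate 5 (-0.95, adjusted p = 0.115) or treated replicates 1, 2 or 3 (-1.16, -1.14 and -1.25, adjusted p = 0.0647, 0.0867 and 0.0569). It was also lost when only the vehicle and highest dose groups entered the fit (adjusted p = 0.141).

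The slope over all doses did not depend on 1 rat in that way. Group means of Cd36 in females of day 29 were 110.3 CPM in controls, 117 at 300, 62.1 at 500, 66.4 at 750, 47.9 at 1000 and 44.9 at 1500 mkd. The slope was -1.0 log2 units per 1000 mkd (SE 0.24, adjusted p = 0.00211), and it remained called without each control or highest-dose rat in turn (adjusted p at most 0.00887) and under all 7 other settings tried. By slope, 3 of the 7 members were called in this table (Cd36, Cidea and Cideb), against 27.3% of all genes. Among females sampled on day 8 the controls had 164, 56.6, 109, 101 and 164 CPM and the rats at 1500 mkd 142, 26.0, 21.5, 47.2 and 83.2 CPM. Of these, 3 were below all controls and the other 2 lay among them. The log2 fold change of -0.89 (SE 0.45, adjusted p = 0.364) and the slope of -0.60 (SE 0.26, adjusted p = 0.177) did not pass, and without treated replicate 1, the rat at 142 CPM, the slope was -0.90 (adjusted p = 0.0210).

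In males the mean of Cd36 at the highest dose was above that of the controls in all 3 tables, without a call. In experiment A the controls had 2.53, 6.86, 3.21, 5.27 and 5.09 CPM and the rats at 1000 mkd 5.33, 5.73, 4.44, 8.01 and 12.5 CPM. 2 treated rats exceeded all controls and the other 3 lay within them. The fold change was not called (0.65, SE 0.35, adjusted p = 0.161), while the slope was (0.79 per 1000 mkd, SE 0.27, adjusted p = 0.0200), one of 3 member slopes called against 45.9% of all genes. That slope was 0.49 (adjusted p = 0.165) without treated replicate 5, the rat at 12.5 CPM. With dose rank in place of dose it was 0.14 per step (adjusted p = 0.182), and without the 1000 mkd group it turned to -0.41 (adjusted p = 0.999).

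In males of day 29 the controls had 4.90, 2.89, 2.84, 2.09 and 2.90 CPM of Cd36 and the rats at 1500 mkd 5.24, 2.15, 15.1, 6.38 and 2.58 CPM. Replicate 3 was high on its own, 2 others were above all controls, and 2 lay among them. The fold change was 1.01 (SE 0.40, adjusted p = 0.106) and the slope 0.63 (SE 0.22, adjusted p = 0.0360), 1 of 7 member slopes called against 24.5% of all genes. Without replicate 3 the slope was 0.24 (adjusted p = 0.392). That rat had a TMM factor of 1.49 and hepatocyte markers at 108100 CPM, where the others of its group had 177800 to 218900 CPM. The paper named the same rat an outlier in its liver staining for cell proliferation, and left it out when modelling that staining against dose. The slope also missed the threshold without control replicates 2, 3, 4 or 5 (0.63, 0.59, 0.56 and 0.61, adjusted p = 0.0553, 0.0642, 0.08 and 0.0508) and without treated replicates 1 or 4 (0.64 and 0.62, adjusted p = 0.0546 and 0.0502). At 1500 mkd 0 of 7 members were called in that table by edgeR or DESeq2, with 1 (Cd36) at an unadjusted p under 0.05 in edgeR, where 4.91% of all genes were called. In males of day 8 of experiment B the fold change of Cd36 was 0.27 (SE 0.35, adjusted p = 0.785) and the slope -0.11 (SE 0.22, adjusted p = 0.818).

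**Figure D2:**
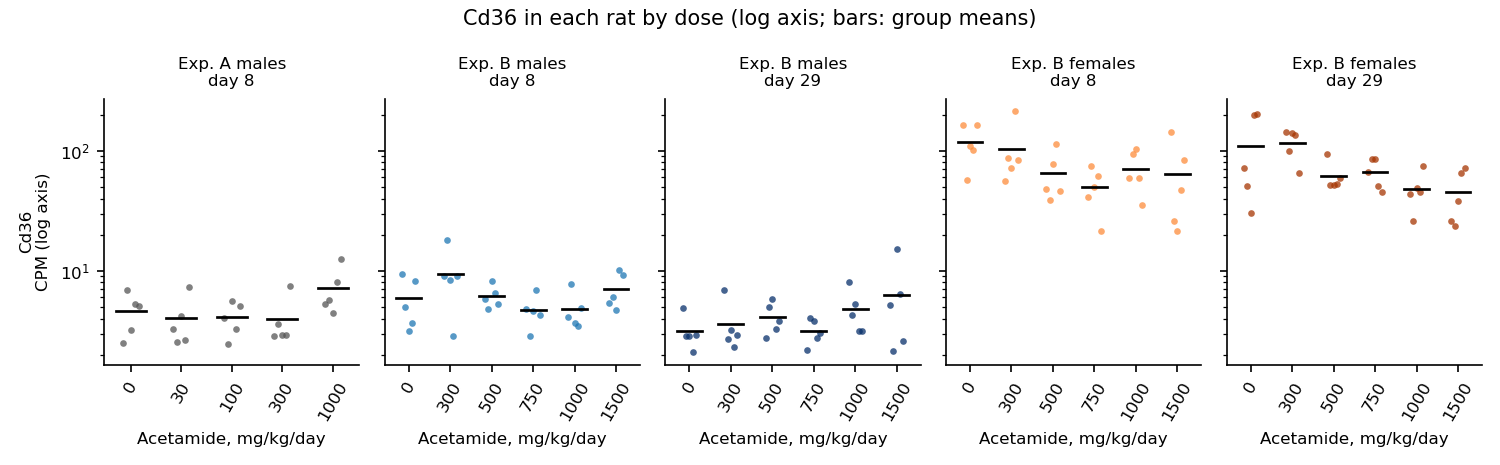
Cd36 in each rat (points) and the group mean (bars) in CPM on a log axis against acetamide dose in mg/kg/day, 1 panel per table, scaled within each table. Every female point lies above every male point, with 18.1 CPM the highest male value and 21.3 CPM the lowest female value, and the female means of day 29 go from 110.3 to 44.9 CPM.

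The responses of the sexes to 1500 mkd were compared directly for Cd36, as the male minus the female log2 fold change. On day 29 the difference was 2.29 (SE 0.59, adjusted p = 0.0651), which did not pass with edgeR and passed with DESeq2 (adjusted p = 0.0203). In that comparison 0 of 7 members were called by edgeR, with 2 at an unadjusted p under 0.05, and 0.0688% of all genes passed. On day 8 it was 1.17 (SE 0.59, adjusted p = 0.995), where 0% of all genes passed, edgeR called 0 members with 0 at an unadjusted p under 0.05, and DESeq2 called 0 with 1. Between day 29 and day 8 the response of Cd36 differed by 0.72 in males (SE 0.54, adjusted p = 0.988) and by -0.41 in females (SE 0.62, adjusted p = 0.883). No member was called there by edgeR or DESeq2, where 0% of all genes passed in males and 0.00858% in females, and edgeR gave 0 and 1 members at an unadjusted p under 0.05.

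Cideb, the CIDE protein of hepatocytes that takes part in loading triglyceride onto very-low-density lipoproteins, was lower at the highest dose in males of experiment A and in females of day 29. Control females of day 29 had 187, 177, 177.5, 158 and 185 CPM of it, and the rats at 1500 mkd had 129, 86.1, 104, 131 and 154 CPM. All 5 treated females lay below all 5 controls. Means were 177 ± 11.6 and 121 ± 26.3 CPM, for a log2 difference of -0.55 (SE 0.11, adjusted p = 0.0017) whose fold of 1.46 is under the 1.5 asked for a call. Without control replicate 4 or treated replicate 5 the fold passed as well (-0.61 and -0.65, adjusted p = 0.0023 and 0.000151). The slope of -0.38 per 1000 mkd (SE 0.07, adjusted p = 0.000137) was called, and remained so without each control or highest-dose rat in turn (adjusted p at most 0.000679) and under the 7 other settings.

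In experiment A the controls had 158, 158, 159, 125 and 119 CPM of Cideb and the males at 1000 mkd 129, 51.1, 114, 103 and 96.6 CPM. 4 treated rats were below all controls, and replicate 2 was far below the rest. The log2 fold change was -0.54 (SE 0.16, adjusted p = 0.0152) with a fold of 1.46, again under the threshold, and the slope was -0.67 (SE 0.14, adjusted p = 0.000472). The fold change passed both thresholds without control replicates 4 or 5 (-0.59 and -0.61, adjusted p = 0.0156 and 0.0122) or treated replicates 1 or 3 (-0.66 and -0.60, adjusted p = 0.00447 and 0.0110). Replicate 2 at 1000 mkd had the highest TMM factor of all rats, 1.91, and the lowest hepatocyte marker sum of its group, 73720 CPM against 131800 to 241300 CPM in the other 4, and it was also the lowest of its group for Cidec, G0s2 and Plin5. Without it the slope of Cideb was still called (adjusted p at most 0.00238 over the rats left out in turn), while without the whole 1000 mkd group no slope of a member was.

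In males of experiment B the fold changes of Cideb at 1500 mkd were -0.10 on day 8 (SE 0.10, adjusted p = 0.702) and -0.0047 on day 29 (SE 0.11, adjusted p = 0.983). At the shared dose of 1000 mkd on day 8 the response of Cideb in experiment A minus that in experiment B was -0.61 (SE 0.19, adjusted p = 0.0382), 1 of 7 members called against 6.9% of all genes. The males of experiment B at 1000 mkd had 143, 110.0, 159, 128 and 143 CPM against controls at 139, 134, 135, 121 and 130 CPM, so values lay on both sides of the controls. The call was lost without replicates 2, 3, 4 or 5 (-0.48, -0.57, -0.65 and -0.65, adjusted p = 0.0670, 0.0785, 0.145 and 0.0959). The experiments differed in substrain, age range and study, which cannot be told apart. Between the sexes on day 29 the response of Cideb differed by 0.52 (SE 0.15, adjusted p = 0.108).

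Cidec, known as FSP27, which drives the fusion of droplets into larger ones, fell in males of experiment A at 1000 mkd. The controls had 79.1, 96.9, 97.2, 129 and 64.8 CPM and the treated males 78.8, 26.6, 69.5, 59.6 and 70.6 CPM. 2 treated rats were below all controls and the other 3 lay in the lower part of the control range. Means were 93.5 ± 24.2 and 61.0 ± 20.4 CPM, for a log2 difference of -0.62 (SE 0.22, adjusted p = 0.0378), the 1 member called in this comparison against 21.4% of all genes. The call was lost without treated replicate 2 (-0.42, adjusted p = 0.0984) or 4 (-0.60, adjusted p = 0.0765), and without control replicates 2, 3 or 4 (-0.60, -0.60 and -0.47, adjusted p = 0.0660, 0.0628 and 0.118). It was also lost with only the vehicle and highest dose groups in the fit (adjusted p = 0.113). The slope of Cidec (-0.46, SE 0.19, adjusted p = 0.0490) lay at the threshold and missed it in 7 of 10 fits that left out a rat, with adjusted p up to 0.215 without treated replicate 2.

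In experiment B Cidec was not called at any dose, and its means at 1500 mkd were 72.2 CPM in males of day 8 and 87.7 CPM in males of day 29, against 73.5 and 78.2 CPM in controls. For females of day 8, 4 of 5 rats at 1500 mkd were below all controls (104, 70.8, 91.1, 92.1 and 137 CPM against 117, 130.2, 158, 136 and 112 CPM), with a log2 fold change of -0.40 (SE 0.18, adjusted p = 0.292). Cidec was lower in control males than in control females, at 77.9 ± 13.7 and 123 ± 17.7 CPM on day 8 on the joint scale, with no overlap (log2 difference -0.66, SE 0.15, adjusted p = 0.00151). On day 29 the difference was -0.54 (SE 0.18, adjusted p = 0.0294), with a fold of 1.46 that did not reach 1.5. Without replicate 4 or 5 it was -0.66 or -0.64 and passed (adjusted p = 0.0254 and 0.0253).

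Cidea, the family member best known from brown fat and from fatty liver, was the 1 member called below the highest dose. In males of day 29 the controls had 7.10, 1.91, 10.5, 6.19 and 2.64 CPM and the rats at 1000 mkd 12.8, 20.3, 23.1, 6.01 and 12.8 CPM. 4 treated rats were above all controls and 1 lay among them. Means were 5.67 ± 3.5 and 15.0 ± 6.80 CPM, for a log2 difference of 1.40 (SE 0.39, adjusted p = 0.0394), 1 of 7 members called against 2.76% of all genes. At 1500 mkd the same table gave 6.44, 7.36, 4.70, 6.63 and 2.86 CPM, all within the control range, and a log2 fold change of -0.03 (SE 0.39, adjusted p = 0.972), so the group means, 5.67, 7.81, 10.3, 10.2, 15.0 and 5.60 CPM from 0 to 1500 mkd, had no called slope (0.26, SE 0.33, adjusted p = 0.582). The call at 1000 mkd was lost without control replicates 1, 2, 4 or 5 (1.44, 1.18, 1.40 and 1.2, adjusted p = 0.0558, 0.102, 0.0711 and 0.0739) and without treated replicates 2, 3 or 5 (1.23, 1.17 and 1.44, adjusted p = 0.118, 0.111 and 0.0850). It held under the other alternatives, with an adjusted p of at most 0.0475.

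Females had higher Cidea at 1500 mkd on both days without a call. On day 29 the controls had 2.06, 10.1, 11.5, 4.04 and 9.60 CPM and the treated females 9.14, 16.5, 19.2, 16.5 and 8.09 CPM, 3 of them above all controls. The log2 fold change was 0.90 (SE 0.34, adjusted p = 0.0610), and it passed with DESeq2 (adjusted p = 0.0434) and without control replicates 2 or 3 (1.03 and 1.11, adjusted p = 0.0450 and 0.0280) or treated replicates 1 or 5 (1.02 and 1.04, adjusted p = 0.0477 and 0.0278). The slope was called (0.54, SE 0.19, adjusted p = 0.0359) and was lost without control replicates 1 or 4 (0.44 and 0.45, adjusted p = 0.0532 and 0.0795) or treated replicates 2, 3 or 4 (0.51, 0.46 and 0.50, adjusted p = 0.0838, 0.0970 and 0.0682). On day 8, 4 of 5 treated females were above all controls, the means were 5.8 and 12.9 CPM, and neither the fold change (1.16, SE 0.42, adjusted p = 0.155) nor the slope (0.68, SE 0.24, adjusted p = 0.0955) passed. In that table edgeR and DESeq2 each called 0 of 7 members at 1500 mkd, with 2 at an unadjusted p under 0.05, where 0.705% of all genes were called. Each tool also called 0 slopes there, with 4 members at an unadjusted p under 0.05, where 5.44% of all genes had a called slope.

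**Figure D3:**
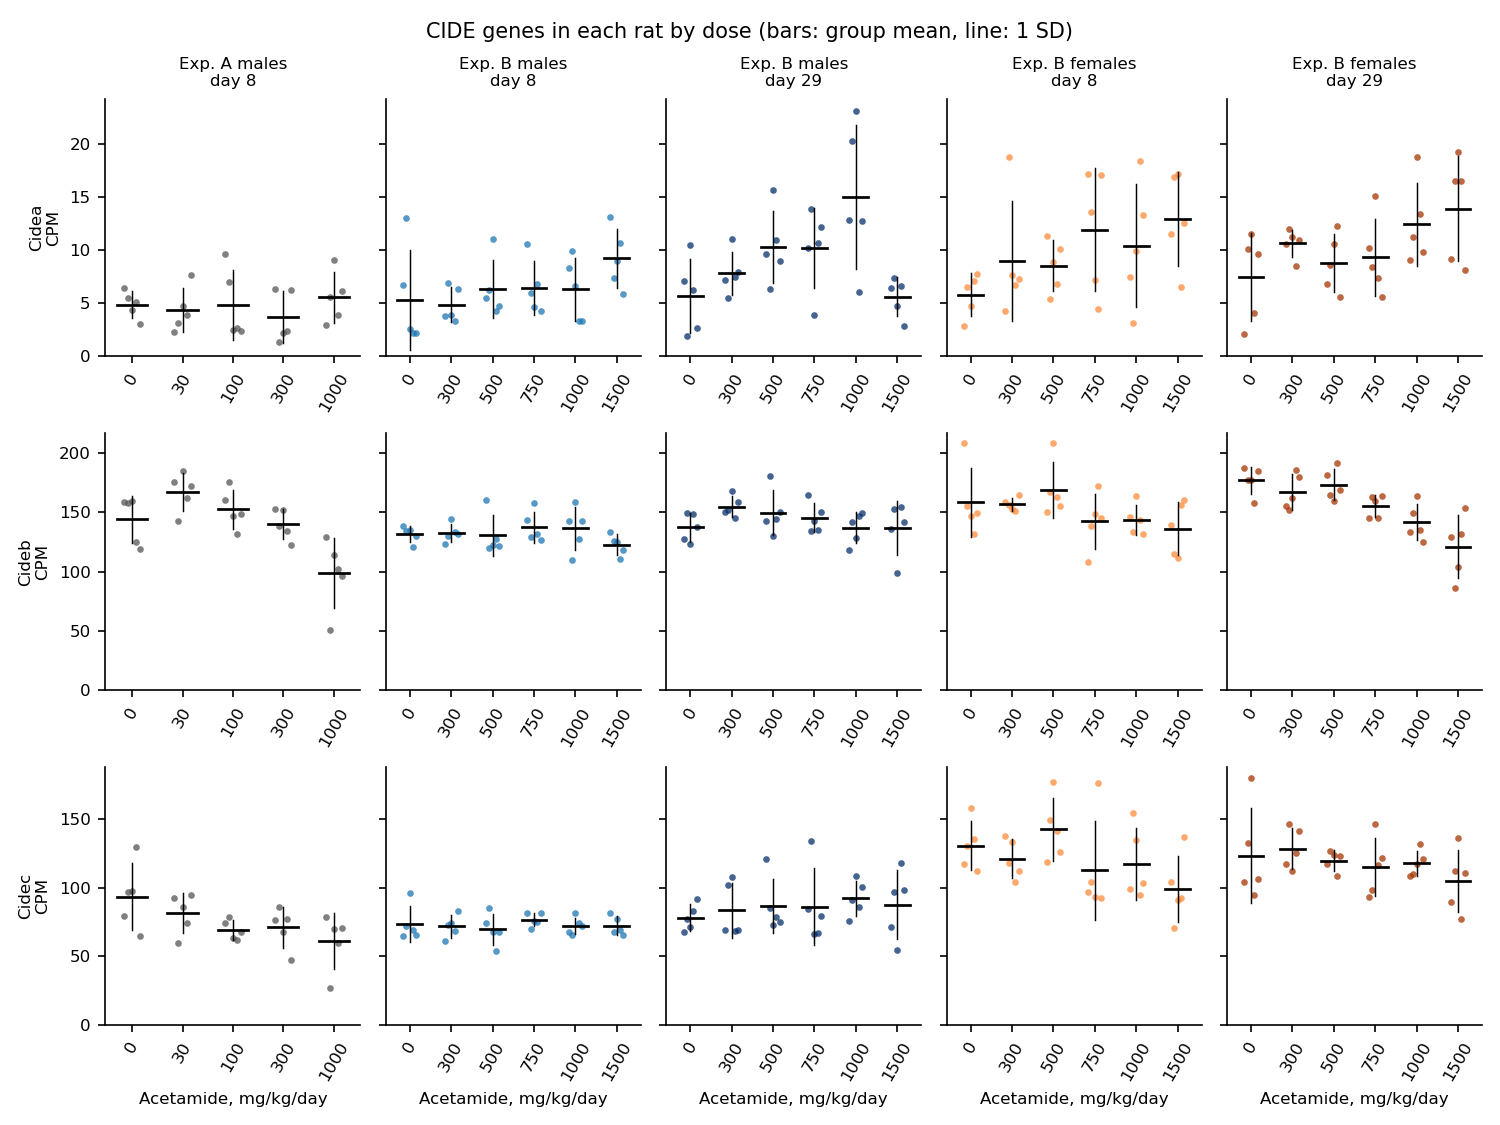
Cidea, Cideb and Cidec (rows) in each rat (points), with the group mean (bar) and 1 SD either side (line), in CPM against acetamide dose in mg/kg/day, 1 column per table. Cideb is lowest at the highest dose in experiment A (mean 98.7 CPM) and in females of day 29 (mean 121 CPM), and Cidea in males of day 29 is highest at 1000 mkd (mean 15.0 CPM) and back at 5.60 CPM at 1500 mkd.

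Plin2, the perilipin that coats most droplets in hepatocytes and whose protein level follows the lipid stored, was not called at any dose in any table. Its spread between rats of 1 group was wide. In males of day 29 the controls had 134, 328, 285, 445 and 363 CPM and the rats at 1500 mkd 119, 129, 489, 692 and 330.0 CPM. 2 treated rats were below all controls and 2 above them. The log2 fold changes at the highest dose ran from -0.17 in females of day 29 (SE 0.37, adjusted p = 0.783) to 0.46 in males of day 8 of experiment B (SE 0.43, adjusted p = 0.694). Group means ran from 148 to 265 CPM in experiment A, from 218 to 352 CPM in the males of experiment B and from 460 to 746 CPM in the females.

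Control females had more Plin2 than control males on day 8. The males had 121, 107, 428, 272 and 245 CPM on the joint scale and the females 299, 348, 880, 628 and 460 CPM. The ranges overlapped through male replicate 3. The log2 difference was -1.16 (SE 0.38, adjusted p = 0.0326), which with Cd36 and Cidec made 3 of 7 members called against 8.37% of all genes. The call of Plin2 was lost without number 1, 2, 4 or 5, and without number 3 its adjusted p as rounded lay at the threshold. Without number 1, 2, 3, 4 or 5 the difference was -1.12, -1.09, -1.21, -1.14 or -1.2 and the adjusted p 0.0767, 0.0863, 0.05, 0.0814 or 0.0718. On day 29 it was -0.61 (SE 0.46, adjusted p = 0.375), and Cd36 was the 1 member called.

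Plin5, the perilipin of oxidative tissues that holds droplets next to mitochondria, was likewise not called at any dose. Its highest fold change at a highest dose was in males of day 8 of experiment B. There the controls had 5.66, 3.14, 10.1, 4.90 and 5.42 CPM and the rats at 1500 mkd 10.9, 9.13, 8.41, 12.3 and 9.46 CPM. Every treated rat was above 4 of the controls, and 2 were above all 5. The log2 fold change was 0.78 (SE 0.30, adjusted p = 0.248) and the slope 0.49 (SE 0.17, adjusted p = 0.107). Of the 7 members edgeR and DESeq2 each called 0 at 1500 mkd there, with 1 (Plin5 in edgeR) at an unadjusted p under 0.05, where 0.177% of all genes were called, and each called 0 slopes, with 2 at an unadjusted p under 0.05, where 2.52% were. Cidea, the other of the 2 in edgeR, had a slope of 0.53 (SE 0.23, adjusted p = 0.218), and of 0.81 (adjusted p = 0.0337) without control replicate 2. In the other 4 tables the fold change of Plin5 ran from -0.12 to 0.26.

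G0s2, the inhibitor of the lipase PNPLA2, was not called at any dose. In experiment A the controls had 210.2, 230, 192, 179 and 280 CPM and the males at 1000 mkd 140, 51.4, 113, 86.9 and 246 CPM. Of the 5 treated males 4 were below all controls. The log2 fold change of -0.78 (SE 0.40, adjusted p = 0.142) and the slope of -0.70 (SE 0.33, adjusted p = 0.0829) did not pass, and without treated replicate 5, the rat at 246 CPM, the slope was -1.07 (adjusted p = 0.0152). The means in females of day 29 were 273 and 171 CPM (log2 fold change -0.68, SE 0.41, adjusted p = 0.260), with 1 control at 572 CPM. In the other 3 tables the fold change at 1500 mkd ran from -0.21 to 0.19.

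**Figure D4:**
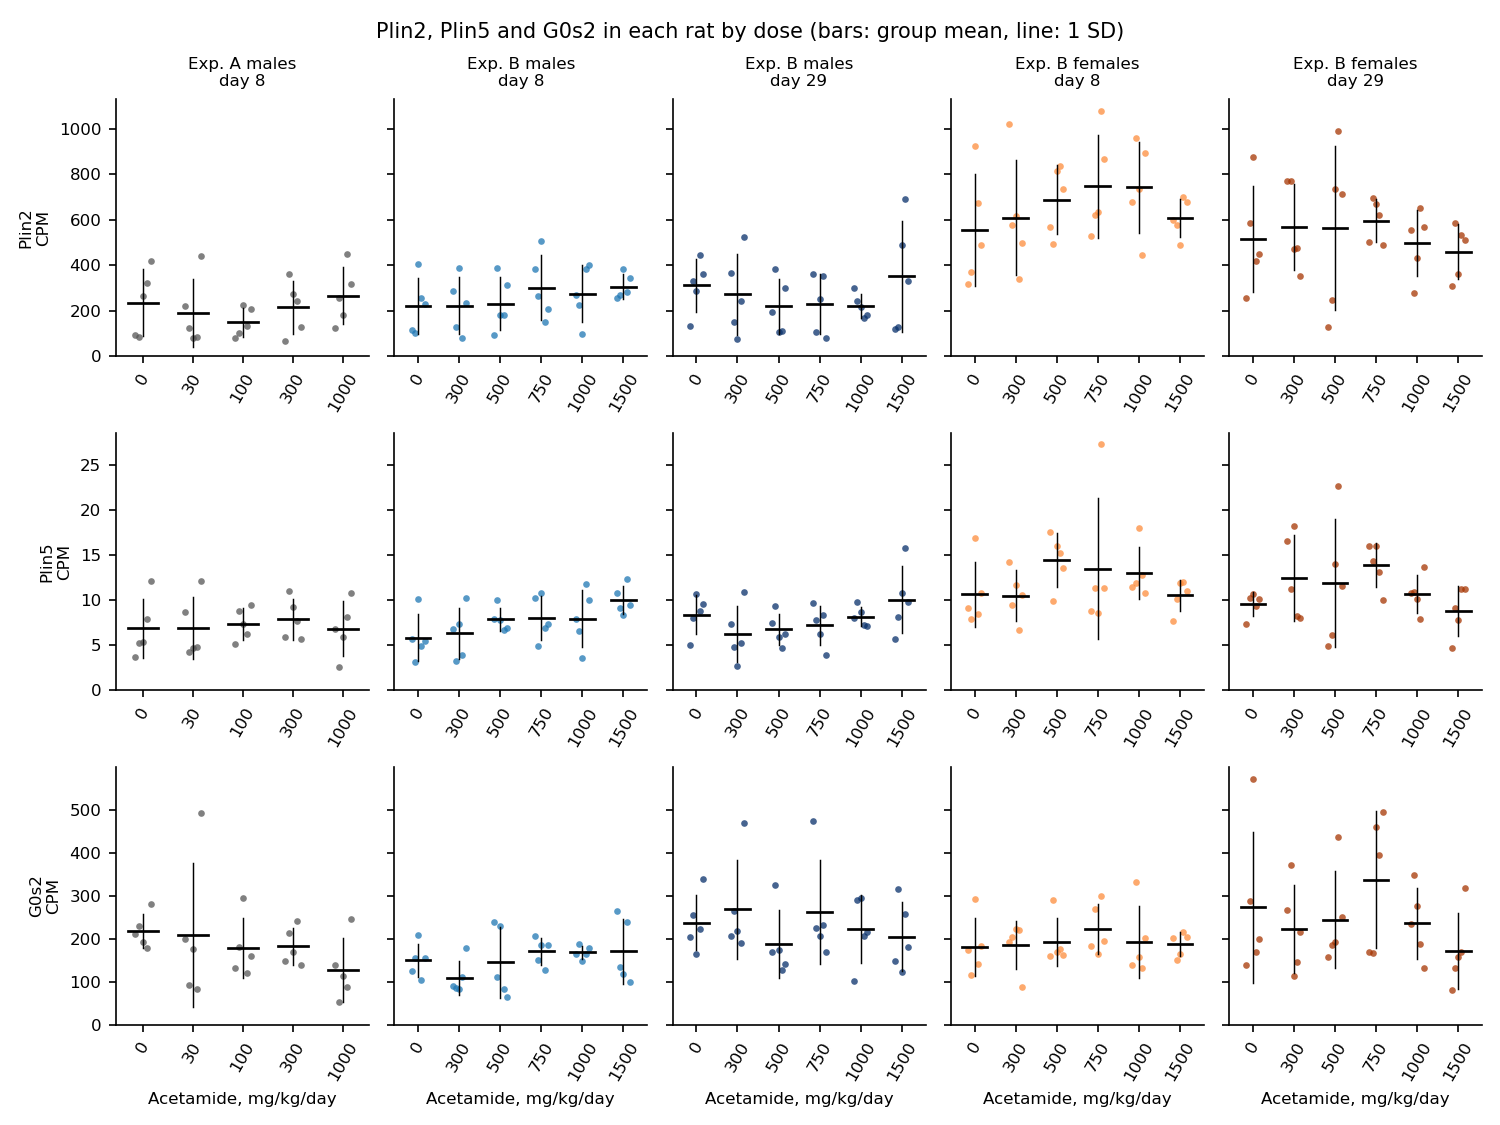
Plin2, Plin5 and G0s2 (rows) in each rat (points), with the group mean (bar) and 1 SD either side (line), in CPM against acetamide dose in mg/kg/day, 1 column per table. Rats of 1 group spread widely, as the Plin2 values of 119 to 692 CPM in males of day 29 at 1500 mkd, and none of the 3 genes was called at a dose.

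Pnpla2, which makes the lipase ATGL, is listed at 0 counts in every rat. In this it is 1 of 2073 genes at 0 in every rat. Without TMM scaling, 3 counts, the limit a count of 0 allows, are 0.0750 CPM in the deepest library and 0.194 CPM in the shallowest. This limit covers counting error in these tables and says nothing of how reads of Pnpla2 were assigned before counting. Mogat1, the monoacylglycerol acyltransferase, had 0 to 6 counts per rat, with 23 rats at 0 and no rat above 0.216 CPM. Neither was tested between doses, and why Pnpla2 is at 0 was not tested.

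Within the groups some members varied together from rat to rat. After each group mean was taken out of log2(CPM + 0.5), Plin2 and Plin5 had a Pearson r of 0.722 and a Spearman rho of 0.697 over all rats. Within the 5 tables r was 0.689, 0.704 and 0.860 in the male tables (experiment A, day 8 and day 29 of experiment B) and 0.602 and 0.731 in the female tables, and it was 0.698 without the 2 rats farthest out on Plin2. Among other pairs Cidec and G0s2 had an r of 0.452, Plin5 and G0s2 of 0.436, Cideb and Cidec of 0.435, and Plin2 and Cidea of -0.233. The points share library depth, scaling and the make-up of each sample, so these values are descriptions.

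**Figure D5:**
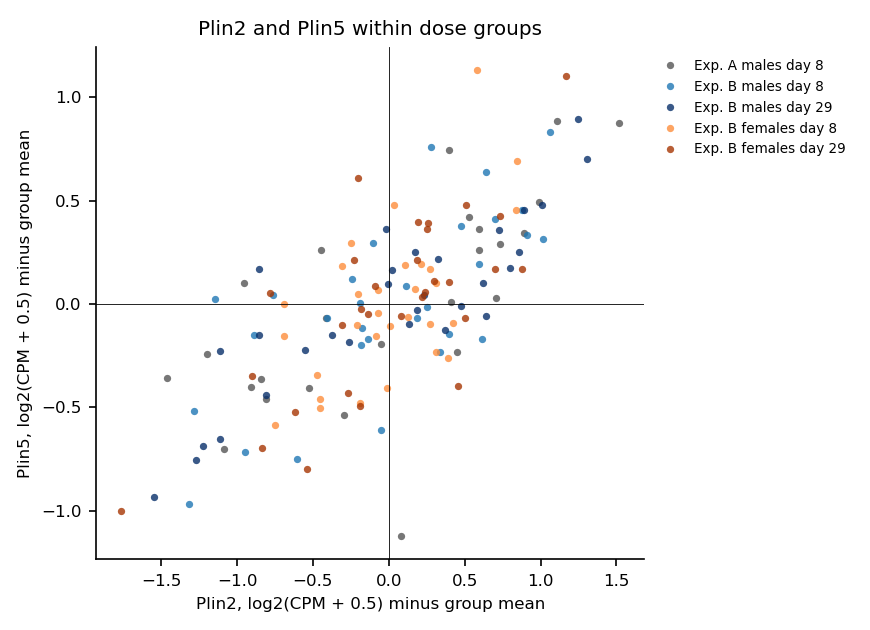
Plin5 (y axis) against Plin2 (x axis) in all rats, each as log2(CPM + 0.5) minus its group mean, coloured by table. The points rise together in each of the 5 tables (r from 0.602 to 0.860).

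The genes most like each member by the same measure, over all genes tested in every table, were named by rule. For Plin2 they were Tor3a (r = 0.842), Cldn1 (0.827) and Lnx2 (0.817), and for Plin5 Pex11a (0.785), Ephx2 (0.763) and Crat (0.739). For Cideb they were Aspdh (0.810), Pcyt2 (0.785) and Acadvl (0.762), and for Cidec Nr1i2 (0.7), Map1lc3b (0.672) and Il6r (0.658). Cd36 was most like Gnat3 (0.626), Ugt2b10 (0.589) and Bche (0.585), G0s2 most like Inhbe (0.587), and Cidea had no partner above Fut7 (0.465). These values, too, describe rats that share depth and sample make-up, and reads that overlap neighbouring genes were not separated.

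Further lists of lipid genes give the setting of the members. In males of experiment A at 1000 mkd, 5 of 9 lipogenic genes fell and 0 rose, led by Scd1, the stearoyl-CoA desaturase (-3.11), and Thrsp (-2.20), with a list median of -1.06 against 0.0009 over all genes. The controls spread widely for both, at 841 ± 774 CPM for Scd1 and 556 ± 374 CPM for Thrsp. At 1000 mkd the values were 97.4 ± 105 and 121 ± 96.5 CPM (SE of the log2 fold change 0.64 and 0.59). Of 20 PPARα targets 9 fell and 1 rose: Acot1, a cytosolic acyl-CoA thioesterase, rose by 3.29 while Ehhadh (-1.15) and Cpt1a (-0.92), both of fatty acid oxidation, fell. These counts stand beside 21.4% of all genes called in this comparison. Lipolysis genes had 2 of 8 lower (Ces1d -1.14 and Lipc -1.12), and esterification genes 2 of 14 higher (Soat1 1.39 and Agpat1 0.80) and 2 lower (Dgat2 -0.76 and Gpat2 -0.79). Of 13 uptake and export genes 2 rose (Fabp4 1.3 and Vldlr 1.07) and 4 fell, among them Fabp1 (-1.21), and of 5 coat genes Fitm2, which helps droplets form, fell (-0.61). Of 6 nuclear receptors and coactivators edgeR called 0. The shares called in the lipolysis, esterification and coat lists lie near the share of all genes.

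In females of day 29 at 1500 mkd the lipogenic list again had 5 of 9 lower, with Scd1 at -3.22 and Fasn at -1.97 and a median of -1.09, where 13.1% of all genes were called. Lipolysis had 4 of 8 lower, Ces1d (-1.24), Lipc (-0.96), Abhd5 (-0.66), the coactivator of PNPLA2, and Aadac (-0.60). Lpl, lipoprotein lipase, rose by 1.33 and Vldlr by 0.99 while Slc27a5 fell (-0.85), Soat1 rose (1.25) and Dgat2 fell (-0.68), of 19 PPARα targets Acot1 alone was called (4.58), and Ppargc1a, a transcriptional coactivator of oxidation genes, rose by 1.10. In the other 3 tables calls were few: Acot1 rose in each (4.93 and 5.10 in males of day 8 and day 29, 3.41 in females of day 8), Acot2 rose in males of day 8 (1.22), and the genes that fell in males of day 29 included Abhd5 (-0.70), Apob (-0.70) and Rxra (-1.41). The rise of Acot1 in males of day 29 was uneven between rats (SE 1.14). Its mean there was 47.0 ± 94.8 CPM at 1500 mkd, with the SD above the mean, against 1.37 ± 0.68 CPM in controls. By comparison the medians of the 7 members at the highest dose were -0.0072 in experiment A, 0.27 and 0.17 in males of day 8 and day 29, and -0.0158 and -0.23 in females of day 8 and day 29.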

How the data were processed

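Per the study's methods, the authors trimmed 75 bp single-end reads of stranded poly(A) libraries with Trimmomatic, aligned them to UCSC Rn6 with Bowtie2, which does not split reads across introns, and counted them on gene models with HTSeq. The deposited values are raw counts per gene in 5 tables, and each library's column was matched to its rat by the labels. Summary lines that name no gene (up to 67.1% of a column in experiment B) were left out. Their part in the low or zero counts of single genes was not tested.

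Counts were filtered with filterByExpr, scaled by TMM and fitted per table with all dose groups in edgeR 4.0.16 (quasi-likelihood F-test, limma 3.58.1, R 4.3.3). P-values were adjusted by Benjamini-Hochberg over the 11279 to 11497 genes tested in each table. Slopes were fitted on dose in units of 1000 mkd and called at an adjusted p of 0.05. Comparisons between sexes, days or experiments used joint fits of the groups compared. SEs belong to log2 fold changes. Group values are means ± SD over 5 rats. DESeq2 1.42.0 was an alternative, beside scaling, filters, samples in the fit, dose rank, a replicate block and rats left out; those for Cidea at 1000 mkd were chosen after seeing the data. Scripts were tested on simulated data. Replicate numbers were not taken as pairs. Named genes are the members, for each list and table up to 4 called genes with the largest change at the highest dose, and the genes most correlated with each member. Members and lists were chosen with earlier results of these data known. Promoters came from RefSeq (GRCr8). No transcript lengths of Rn6 were used, so levels are not compared between genes. The limit given for a count of 0 covers counting error only, while SDs and SEs include the spread between rats. The result of 1 gene of a list is not reported here.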

Additional observations from a re-analysis of the deposited data

Results flagged for a closer look

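In 20 of 203 groups of 5 the highest or lowest rat stood apart from the other 4 by more than Dixon's 95% critical value (0.71). About 10.2 groups would do so if values were normal. The values were CPM without logs, and groups of different genes hold the same rats, so 20 against 10.2 does not measure how many rats are outlying. In experiment A the groups with such a rat were Cd36 at 300 mkd (7.48 CPM, the others 2.88 to 3.63) and G0s2 at 30 mkd (492 CPM, the others 82.9 to 200.1). In males of day 8 of experiment B they were Cideb at 500 mkd (161 CPM) and Cidec in controls (96.3 CPM). In males of day 29 they were Cidec at 500 and 750 mkd (121 and 134 CPM), Cd36 in controls and at 300 mkd (4.90 and 6.93 CPM) and G0s2 at 300, 500 and 750 mkd (468, 325 and 474 CPM). Among females of day 8 they were Plin5 at 750 and 1000 mkd (27.3 and 18.0 CPM), Cidea at 300 mkd (18.8 CPM), Cideb at 500 mkd (209 CPM), Cidec at 750 mkd (177 CPM), Cd36 at 300 mkd (215 CPM) and G0s2 at 300 and 500 mkd (87.3 and 291 CPM). The 1 in females of day 29 was Cd36 at 500 mkd (94.8 CPM, the others 51.6 to 58.9). The rat was the highest of its group in all of these but G0s2 at 300 mkd in females of day 8, where it was the lowest. Plin5 and Cidec at 750 mkd in females of day 8 stood apart in the same rat, replicate 4.

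The response of Cideb to 1000 mkd on day 8 differed between the experiments by -0.61 (adjusted p = 0.0382), as tested in a joint fit. The call was lost without replicates 2, 3, 4 or 5 (adjusted p = 0.0670, 0.0785, 0.145 and 0.0959) and, by its fold, with at least 10 counts in every rat (-0.56, adjusted p = 0.0385).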

How the results depend on the processing

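Of 100 counts of called members under settings other than leaving out rats, 92 kept within 1.5 times the reported count, 5 fell below it and 3 rose above it. With only the vehicle and highest dose groups in the fit, 0 members were called at the highest dose in experiment A and 0 in females of day 29. In the latter, DESeq2 called 2 and the replicate block called 2, and DESeq2 called 1 member for the sex difference in response on day 29. Counts of slopes fell to 0 in experiment A without the highest dose group, where the slope of Cd36 turned to -0.41, and to 0 in males of day 29 with no filter on low counts. With at least 10 counts in every rat 0 members differed between the experiments. The cause was not tested.

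Leaving out 1 rat, or 1 replicate number, in turn gave 0 to 2 members at the highest dose in experiment A and 0 to 3 in females of day 29, and 2 to 3 slopes in each of these tables. It gave 0 to 1 slope in males of day 8, males of day 29 and females of day 8, 0 to 1 member between the experiments, and 2 and 1 to 2 members between control males and females on day 8 and day 29. Same-numbered control and highest-dose rats correlated by -0.29 to 0.38 and other rats by -0.43 to 0.37. Of 5 numbers per table, 2 correlated best with their own in experiment A, 4 and 2 in males of day 8 and day 29, and 3 and 1 in females. Unrelated numbers would give about 1 of 5. The labels name no pairs, and the numbers were not taken as pairs. Whether rats of 1 number share a factor was not tested, and in experiment A the numbers are not always those of the labels. The block changed no other count of called members by over 1.5 times, though among slopes of experiment A it lost Cidec (adjusted p = 0.0523) and gained G0s2 (adjusted p = 0.0478).

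Mogat1, at 0 to 6 counts per rat, is limited by depth, and Pnpla2 is listed at 0 in every rat. Each of the 3 calls at a dose was lost without at least 1 of the rats compared. The values of Cd36 and Cideb in females of day 29 did not lose their slope call in any fit.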
